A study of Mus musculus with 2 samples.

Results

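Chromatin accessibility was examined at 10 nuclear genes that control how mitochondria are built and how mitochondrial DNA is copied and transcribed: Tfam, Tfb1m, Tfb2m, Polrmt, Polg, Nrf1, Gabpa, Esrra, Ppargc1a and Ppargc1b. The genes were chosen by name and their regions by position: a region belonged to a gene when it lay within 500 bp of a transcription start (promoter region) or inside the gene (gene-body region) on the mouse build mm10. Merging the peaks of both libraries gave 369634 regions, of which 92 belonged to the 10 genes. These were 12 promoter regions and 80 gene-body regions, drawn from 72 peaks of the Control library and 85 peaks of the MOF cKO library.

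The data were single-cell ATAC-seq of embryonic mouse back skin at E16.5, an assay that counts the sites where a transposase cuts open chromatin. One library was Control and the other was MOF cKO, in which floxed MOF alleles (MOFfl/fl) were deleted by Cre driven from the K14 promoter (K14Cre), active in the epidermis. MOF, also known as Kat8, acetylates histone H4 at lysine 16. Both groups carried the Krt14-H2BGFP reporter, and by the labels GFP-positive and GFP-negative cells were sorted and mixed 5 to 1. The study's own text gives other mixing ratios, so the ratio is not certain, and the shares of cell classes were set by the sort. The mice were on a mixed C57Bl/6J and CD-1 background with littermate controls, and the labels did not give the controls' alleles. With 1 library per genotype there is no replicate check: no test was made, a difference is one between these libraries, and every interval below is a 95% interval that covers counting error only.

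Mitochondria keep a small genome of their own, but nearly all of the proteins that run it are encoded in the nucleus. NRF1 and GABPA are DNA-binding factors that act at the promoters of many nuclear genes for mitochondrial proteins, ERRα (Esrra) is a nuclear receptor with targets in oxidative metabolism, and PGC-1α (Ppargc1a) and PGC-1β (Ppargc1b) are coactivators that work through such factors. Their targets include the mitochondrial DNA machinery: TFAM packages mitochondrial DNA and helps start its transcription, TFB2M works with the RNA polymerase POLRMT at mitochondrial promoters, TFB1M methylates the small ribosomal RNA, and POLG is the catalytic subunit of the mitochondrial DNA polymerase.

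Sequence just before the starts of 6 of the genes is shown to give examples of the searched motifs, the inner Ppargc1a start among them. A YY1 match at Gabpa and an SP1 match at Esrra lie outside the stretches printed. The levels below were counted over peak regions, which are longer than these stretches. In a merged region each library's sites came only from its own peaks, so the intervals counted can differ between the libraries. The stretches are 5′ to 3′ on the strand of the gene, from RefSeq and the GRCm38 genome. Capitals mark matches to the motifs given below, and stretches without capitals held none.
Tfam, ETS site, chr10:71238073-71238102, minus strand: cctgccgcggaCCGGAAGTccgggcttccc
Tfam, SP1 site, chr10:71238136-71238165, minus strand: cctcggcccggCCCCGCCCactgagcggtg
Polg, ETS site, chr7:79466293-79466322, minus strand: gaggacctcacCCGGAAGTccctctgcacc
Gabpa, NRF1 site, chr16:84835094-84835123, plus strand: ctcttggagacactgcactgtaCGCATGCG
Nrf1, first start, chr6:30047838-30047987, plus strand: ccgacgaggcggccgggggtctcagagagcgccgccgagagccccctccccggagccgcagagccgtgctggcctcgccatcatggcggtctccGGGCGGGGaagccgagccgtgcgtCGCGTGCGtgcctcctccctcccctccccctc
Esrra, chr19:6921814-6921958, minus strand: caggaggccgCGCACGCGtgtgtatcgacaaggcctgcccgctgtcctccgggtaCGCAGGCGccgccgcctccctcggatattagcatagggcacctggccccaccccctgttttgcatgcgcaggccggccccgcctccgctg
Ppargc1a, inner start, chr5:51553923-51554072, minus strand: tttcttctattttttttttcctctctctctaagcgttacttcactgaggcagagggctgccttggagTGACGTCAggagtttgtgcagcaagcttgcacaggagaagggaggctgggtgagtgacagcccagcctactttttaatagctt
Ppargc1a, upstream start, chr5:51567727-51567875, minus strand: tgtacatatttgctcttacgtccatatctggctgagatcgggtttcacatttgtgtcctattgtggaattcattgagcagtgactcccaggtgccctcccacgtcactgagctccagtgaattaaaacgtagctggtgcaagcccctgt

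The 7 motifs were searched on both strands in the 300 bases around each RefSeq start, from 250 before to 50 after it. No motif's letters contained another's. Over 32851 RefSeq promoters, the NRF1 motif CGCANGCG was present in 8.21%, the ETS motif CCGGAAGT that GABPA reads in 3.89%, the SP1 motif GGGCGGGG in 17.6%, the YY1 motif AAGATGGC in 2.75%, the CRE motif TGACGTCA in 1.79%, the motif AAGGTCA of estrogen-related receptors in 4.72%, and the AP-1 motif TGACTCA or TGAGTCA in 5.2%. Of the 10 genes, 9 matched an entry by symbol. The NRF1 motif occurred at Tfb2m, Nrf1, Polrmt, Gabpa and Esrra, the ETS motif at Tfam and Polg, the SP1 motif at Tfam, Nrf1 and Esrra, and the YY1 motif at Gabpa. The inner start of Ppargc1a was read from the genome over the 150 bases before it only. That stretch held a CRE match, which is not comparable with the shares above, taken over 300 bases. A match is a description of letters and says nothing of binding.

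The Control library held 2541 barcodes and 169641002 sites in its peaks, and the MOF cKO library 4348 barcodes and 324310197 sites. After a minimum of 1000 sites, 2481 and 4348 cells remained, with medians of 62973 and 66240 sites per cell, and 21 barcodes occurred in both libraries. Clustering and markers gave 1295 Control and 2634 MOF cKO epithelial-like cells (52.2% and 60.6% of cells, medians of 72164 and 84555 sites) and 654 and 1251 fibroblast-like cells. Another 436 Control and 60 MOF cKO cells were left unnamed, among them cluster 9 (306 and 7 cells, median of 2519 sites), in which 8 of 10 epithelial markers were raised. Counted as epithelial, cluster 9 would bring their shares to 64.5% and 60.7% and turn their order, so no difference in cell shares is read. The epithelial-like cells of the libraries fell almost wholly into different clusters, Control cells in clusters 1 (766 Control and 15 MOF cKO cells) and 6 (528 and 24) and MOF cKO cells in clusters 0, 3, 4 and 13 (1 Control cell, in cluster 3), so cluster and genotype cannot be told apart there. In epithelial-like cells the summed promoter level of 10 epithelial markers was 308 CPM in Control against 244 in MOF cKO, that of fibroblast markers 93 and 84.1, and that of the 4 measured of 9 muscle markers 10.9 and 23.3, with no marker at 0. Their part in the results below was not tested. CPM is the number of sites per 1000000 sites in regions called in both libraries, within a cell class and library. The Kat8 promoter, whose accessibility does not test the deletion, was at 49.9 CPM in Control against 36.7 in MOF cKO epithelial-like cells, for a log2 difference of -0.44 (-0.52 to -0.37). The median of all promoters was -0.41 in these cells, and 42.4% of promoters had a lower difference than Kat8.

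In epithelial-like cells the promoters of 9 of the 10 genes were less open in MOF cKO than in Control and the Ppargc1a promoter was more open. After thinning each cell to 5000 sites the count was 8, without Tfb2m. Most promoters of the genome were also lower on this scale: the median log2 difference (MOF cKO over Control) of 15720 promoters was -0.41, and 84.4% were below 0. The median of the 10 genes was -0.44, and 6 of them were below the median of all promoters. None of the 10 was 2-fold lower, as 2.30% of all promoters were, or 2-fold higher, as 2.48% were. Summed over the 10 genes, 42495 sites in Control against 68311 in MOF cKO gave a log2 difference of -0.39 (-0.41 to -0.36). As a list the genes thus stood close to the other promoters, and the account below turns on the single members.

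The genes differed widely in promoter level. Per kb of region, Control epithelial-like cells had the highest level at Tfb1m, 108 CPM per kb, above 99.7% of promoters. Esrra followed at 86.2, above 98.7%. Then came Gabpa (54.3), Tfb2m (44.9), Polg (43.1), Tfam (38.2), Ppargc1b (31.3), Polrmt (26.4), Nrf1 (16.8) and Ppargc1a (8.03), the last above 24.0% of promoters. Tfb2m and Polg were the only neighbours in this order whose counting intervals overlapped. The Nrf1 level averaged a strong and a weak region, and its first start alone had 28.9 CPM per kb. In MOF cKO epithelial-like cells the order was kept but for the last places: Tfb1m 76.3, Esrra 60.9, Gabpa 42.7, Tfb2m 41.1, Polg 37.3, Tfam 25.4, Ppargc1b 21.7, Polrmt 19.6, and Ppargc1a and Nrf1 both 12.4. The first start of Nrf1 alone had 23.1 CPM per kb, above Ppargc1b and Polrmt, so its last place comes from the average with the weak region. The intervals of Gabpa and Tfb2m overlapped, as did those of Ppargc1a and Nrf1.

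**Figure D1:**
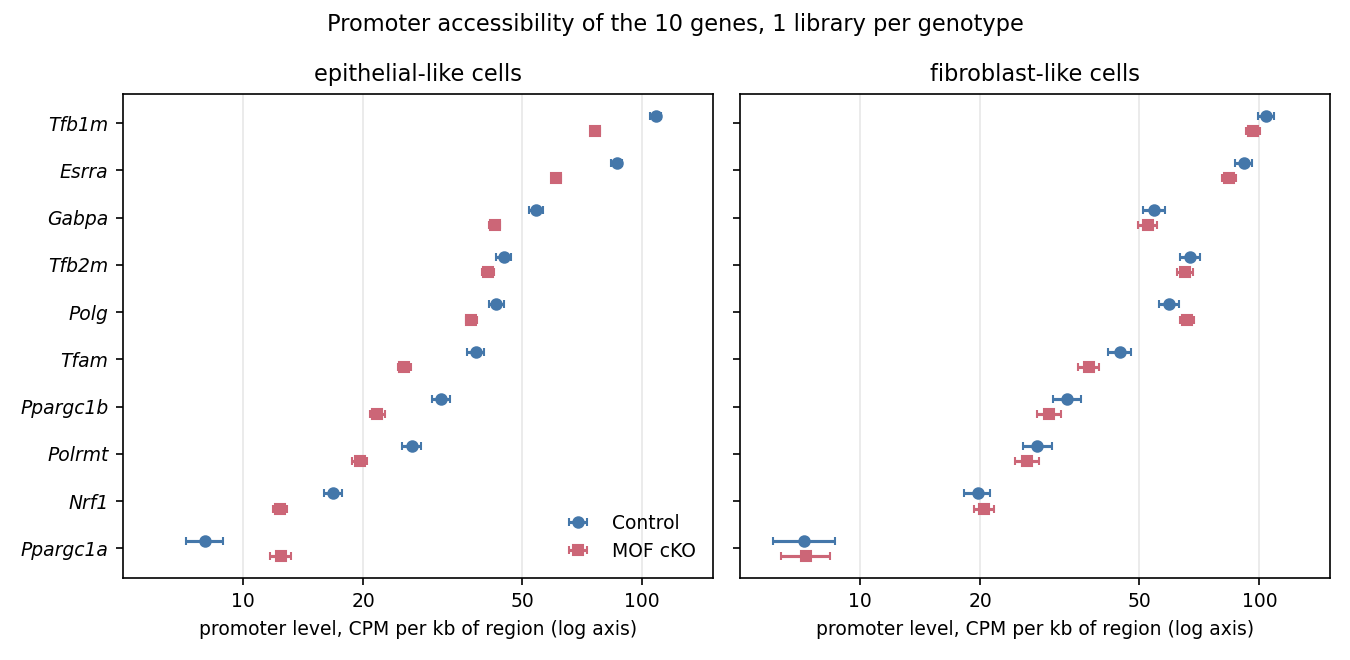
Promoter level of the 10 genes in CPM per kb of region (log axis) in epithelial-like (left) and fibroblast-like (right) cells of the Control (circles) and MOF cKO (squares) libraries, with 95% counting intervals as bars. In epithelial-like cells each square lies left of its circle except at Ppargc1a, where the levels are 8.03 and 12.4.

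Of the genes for the mitochondrial DNA machinery, Tfam was the lowest in MOF cKO relative to Control. Its promoter was at 36.2 CPM (34.6 to 38.0) in Control against 24.0 (23.1 to 25) in MOF cKO epithelial-like cells, for a log2 difference of -0.59 (-0.68 to -0.50), and 16.7% of promoters were lower still. The Tfb1m promoter was at 93.7 CPM (91.0 to 96.4) in Control against 66.3 (64.7 to 67.9) in MOF cKO, a log2 difference of -0.50 (-0.55 to -0.45). Both lay further below 0 than the median of all promoters. Polrmt, at 27.1 and 20.1 CPM, differed by -0.43 (-0.53 to -0.33), with the median of all promoters inside its interval. Polg, at 44.1 and 38.2 CPM, differed by -0.21 (-0.28 to -0.13), and Tfb2m, at 39.8 and 36.4 CPM, by -0.13 (-0.21 to -0.05). The sign of Tfb2m turned when each cell was thinned to 5000 sites (0.022, -0.31 to 0.36). These last genes kept more of their Control level than most: 74.1% and 78.9% of promoters had a lower difference. The paralogs Tfb1m and Tfb2m therefore lay apart, on opposite sides of the median. The Tfb2m region also lies within 500 bp of a start of Cnst, that of Tfb1m of one of 1700102H20Rik and that of Polg of one of Gm10616. Such sites cannot be assigned to either gene.

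Among the DNA-binding regulators, Esrra was at 78.4 CPM (76.0 to 81.0) in Control against 55.4 (54.0 to 56.9) in MOF cKO, a log2 difference of -0.50 (-0.56 to -0.44). Nrf1, summed over its regions, was at 29.8 and 22.0 CPM, a difference of -0.44 (-0.54 to -0.34). After thinning it was -0.26 (-0.66 to 0.14), above 66.9% of promoters in place of 42.8%. Its starts differed: the first start was at 26.0 and 20.8 CPM (-0.32, -0.42 to -0.22), while a weak start 28323 bp further in was at 3.74 and 1.12 CPM (-1.73, -2.08 to -1.39). That weak start was also lower in fibroblast-like cells, at 0.73 and 0.24 CPM on 29 and 15 sites (-1.60, -3.09 to -0.23). A further start at 42121 bp lay in a peak of the MOF cKO library only, at 0.78 CPM. Gabpa, whose region also lies within 500 bp of a start of the divergent neighbour Atp5j, was at 47.6 and 37.5 CPM, a difference of -0.35 (-0.42 to -0.27).

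The coactivator genes parted. The Ppargc1b promoter was at 29.0 CPM (27.5 to 30.5) in Control against 20.1 (19.2 to 21.0) in MOF cKO, a log2 difference of -0.53 (-0.63 to -0.43). With a window of 1000 bp it was -0.34 (-0.40 to -0.28), above the difference of 58.9% of promoters and on the other side of their median. That window also takes in the gene-body region at 1428 bp (21.5 and 18.8 CPM, -0.19). The Ppargc1a promoter, the inner start shown above with its CRE match, was at 7.06 CPM (6.34 to 7.84) in Control against 10.9 (10.3 to 11.6) in MOF cKO. Its log2 difference was 0.63 (0.45 to 0.81), higher than 95.3% of promoters and 1.03 above the median of all promoters. With a window of 1000 bp, which also takes in the gene-body region at 15059 bp (5.83 and 5.81 CPM), the difference was 0.38. The upstream RefSeq start of Ppargc1a, counted here as a gene-body region because its transcript is not in the basic annotation, was at 1.83 CPM in Control against 1.41 in MOF cKO, a difference of -0.37 (-0.76 to 0.02).

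**Figure D2:**
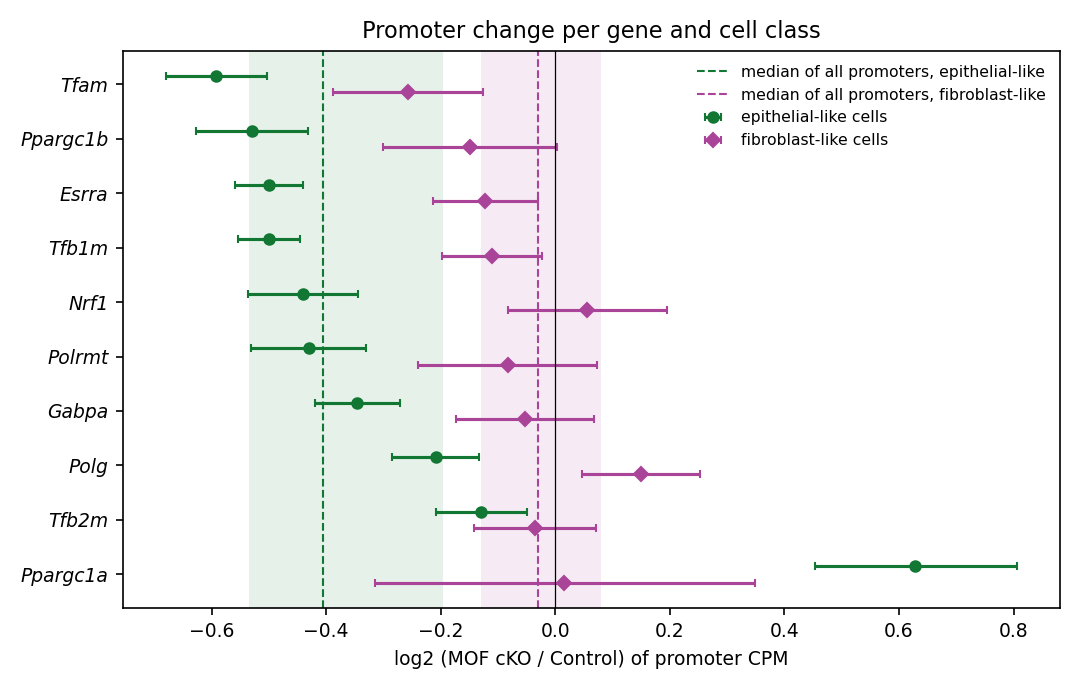
Log2 difference (MOF cKO over Control) of promoter CPM for each gene in epithelial-like (circles) and fibroblast-like (diamonds) cells with 95% counting intervals. Dashed lines and bands are the median (-0.41 and -0.03) and the quartiles of all promoters in each class, and Ppargc1a in epithelial-like cells is the one point far to the right.

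In fibroblast-like cells the median log2 difference was -0.07 for the 10 genes and -0.03 for all promoters, and 7 of 10 were below the median of all promoters. The distance between the classes depends on the scaling: per cell, the medians of the 10 genes were -0.36 in fibroblast-like and -0.39 in epithelial-like cells, and those of all promoters -0.32 and -0.36. None was 2-fold lower (0.872% of all promoters) or 2-fold higher (1.91%). On the main scale Tfam again had the lowest value, 42.3 CPM in Control against 35.4 in MOF cKO, a log2 difference of -0.26 (-0.39 to -0.13), and 10.3% of promoters were lower. Tfb1m (90.4 and 83.7 CPM, -0.11, -0.20 to -0.02) and Esrra (83.2 and 76.4 CPM, -0.12, -0.21 to -0.03) were also lower beyond counting error. Polg was higher, 60.8 and 67.4 CPM, a difference of 0.15 (0.05 to 0.25), but within the clusters that held both genotypes it was at 71.0 and 71.0 CPM (cluster 2) and at 59.0 and 55.3 (cluster 5). Per cell, the Polg difference was -0.14 (-0.24 to -0.03). The intervals of Tfb2m, Polrmt, Nrf1 (summed over its regions), Gabpa, Ppargc1a and Ppargc1b included 0. After thinning each cell to 5000 sites Gabpa was lowest, at -0.41 (-0.81 to -0.01) in place of -0.05, and Tfam was at -0.24 (-0.68 to 0.21). Ppargc1a was at 6.36 and 6.43 CPM, a difference of 0.01 (-0.31 to 0.35). Its sign turned in 5 of 9 alternatives, and after thinning it was 0.74 (-0.48 to 2.15), so no difference from its value in epithelial-like cells is read from it. Control fibroblast-like cells were mostly in cluster 5 while MOF cKO ones were mostly in clusters 2 and 7.

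Within each library the levels of the cell classes can be set side by side. On the CPM scale most promoters of the genome were more open in fibroblast-like cells, 68.0% in Control and 80.6% in MOF cKO, with medians of -0.18 and -0.57 (log2 of epithelial-like over fibroblast-like). In Control, the intervals of the difference between the classes included 0 at Gabpa (log2 difference of epithelial-like over fibroblast-like -0.00, -0.11 to 0.11), Tfb1m (0.05, -0.03 to 0.13), Polrmt (-0.07, -0.21 to 0.08), Ppargc1b (-0.08, -0.22 to 0.06) and Ppargc1a (0.15, -0.15 to 0.46), while Tfb2m (-0.57, -0.68 to -0.47), Polg (-0.46, -0.57 to -0.36), Nrf1 (-0.23, -0.36 to -0.09), Tfam (-0.22, -0.34 to -0.10) and, by a margin within rounding of 0, Esrra (-0.08, -0.17 to -0.00) were more open in fibroblast-like cells. In MOF cKO, 9 of the genes were more open in fibroblast-like cells on this scale, from -0.30 at Gabpa to -0.82 at Polg, and Ppargc1a was more open in epithelial-like cells by 0.76 (0.55 to 0.99), above 90.1% of promoters. The medians of the 10 genes were -0.08 and -0.46, both above those of all promoters. These directions depend on the scaling, an alternative added after seeing the data: per cell, 2 of the 10 were below 0 in Control (Tfb2m and Polg) and 3 in MOF cKO (Tfb2m, Polg and Nrf1), with 34.7% and 39.5% of all promoters. Of these MOF cKO values, those of Tfb2m (-0.01, -0.09 to 0.07) and Nrf1 (-0.06, -0.17 to 0.04) had intervals that included 0. Ppargc1a was above 0 on both scales in MOF cKO, at 1.42 (1.20 to 1.65) per cell.

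Smaller classes gave few sites. In immune-like cells (48 Control and 280 MOF cKO), Tfam was at 42.1 and 38.6 CPM, Polg at 77.4 and 87.8, Esrra at 96.4 and 118, and Ppargc1a at 5.13 and 5.93 on 10 and 57 sites. The intervals of these 4 immune-like differences included 0. In mural-like cells (18 and 69), Tfam was at 32.2 and 52.2 CPM on 31 and 174 sites, a log2 difference of 0.70 (-0.09 to 1.58). No site was counted over the Ppargc1a promoter in Control mural-like cells, with an interval of up to 7.66 CPM, and 15 sites in MOF cKO gave 4.50 CPM (1.88 to 9.06), so no difference was detectable at this depth.

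Within the classes, clusters of at least 50 cells show how far the levels vary inside a library. The Tfam promoter was at 35.2 and 37.6 CPM in the Control epithelial-like clusters 1 and 6, and at 25.5, 21.0, 24.5 and 30.7 in the MOF cKO clusters 0, 3, 4 and 13. Counting intervals were not computed for these promoter levels, so clusters are compared as point values only. On those, the groups did not overlap at Tfam. In fibroblast-like cells Tfam was at 41.6 and 42.3 CPM in Control clusters 2 and 5 and at 34.6, 27.4 and 38.5 in MOF cKO clusters 2, 5 and 7. These point values did not overlap either, without intervals to say whether they differ beyond counting error. Ppargc1a was at 7.31 and 6.70 CPM in the Control epithelial-like clusters and at 9.41, 13.9, 10.9 and 6.68 in the MOF cKO ones. Clusters 0, 3 and 4 thus lay above the Control values. The small cluster 13, in which 2 sites make 1.34 CPM, has too few sites at this promoter to be placed. Of the 9 genes that were lower in MOF cKO, all 9 lay below both Control clusters in each of the MOF cKO clusters 0, 3 and 4. In cluster 13 (70 cells, median of 19274.5 sites) the point values of 7 of the 9 lay above both Control clusters, all but Tfam and Tfb1m. Polg was at 91.5 CPM there against 41.3 to 47.8 in the Control clusters, Tfb2m at 61.4 against 38.1 to 41.2, and Gabpa at 67.4 against 46.4 to 48.6. The margins were small at others, such as Polrmt (30.7 against 25.5 to 28.4) and Ppargc1b (32.7 against 27.4 to 31.1), so the count of 7 is not read as a reversal. Without cluster 13 the summed difference of the 10 promoters was -0.39, as with it.

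**Figure D3:**
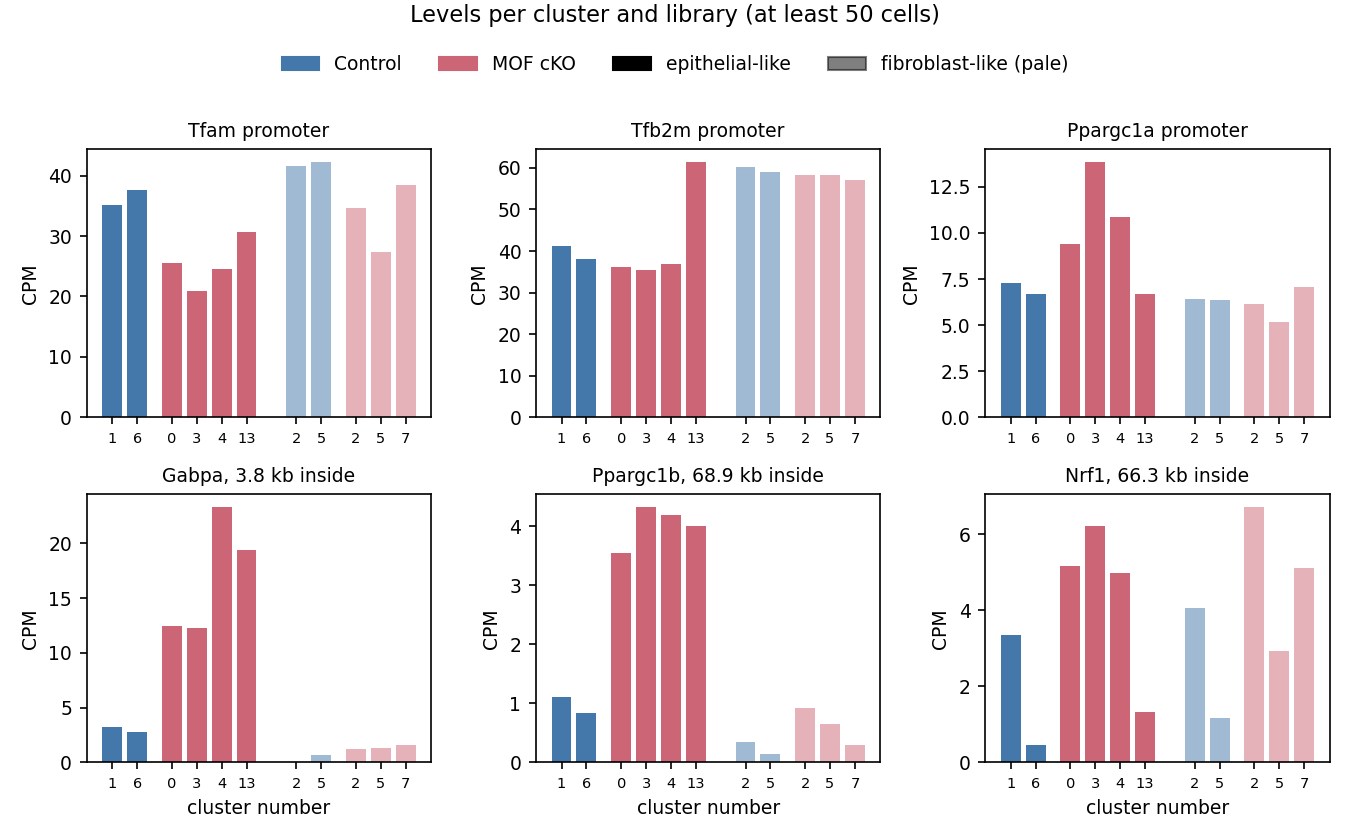
CPM of 3 promoters and 3 gene-body regions in each cluster and library with at least 50 cells, Control in blue and MOF cKO in red, epithelial-like clusters in full and fibroblast-like clusters in pale colour. The Gabpa region is between 12.3 and 23.3 CPM in the MOF cKO epithelial-like clusters and at most 3.19 in the Control ones.

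Inside the genes, 53 of the 80 gene-body regions were called in both libraries, and these carried the largest rises in MOF cKO epithelial-like cells. Levels were low: the median region was at 2.08 CPM in Control against 2.30 in MOF cKO epithelial-like cells, and the highest at 21.5 and 18.8. The median log2 difference of the 53 regions was -0.10, beside -0.01 for all gene-body regions. These medians depend on the scaling and the cells: on own peaks they were -0.24 and -0.16, without the cells of highest doublet score -0.19 and -0.07, per cell -0.05 and 0.04, and after thinning -0.03 and 0.09, so the sign for all regions turned. In MOF cKO epithelial-like cells 7 were 2-fold higher or more (18.7% of all gene-body regions were) and 5 were 2-fold lower or more (9.44% were), shares of 13.2% and 9.43%. By counting error alone, 13 of the 53 had intervals above 0 (31.4% of all gene-body regions had) and 17 below it (29.4%). In fibroblast-like cells 52 regions had enough sites, with a median of 0.21 beside 0.01 for all. This median was -0.08 per cell (all -0.28) and -0.18 with the mixed cluster, left unnamed here, counted as fibroblast-like (all -0.24), so its sign turned while it stayed above that of all regions. On the main scale 8 were 2-fold higher (10.6% of all) and 2 were 2-fold lower (7.91%).

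The largest log2 difference was 3828 bp inside Gabpa, in a region that overlaps an exon. It was at 3.0 CPM (2.54 to 3.53, 295 sites) in Control against 15.5 (14.8 to 16.3, 3208 sites) in MOF cKO epithelial-like cells, for a log2 difference of 2.37 (2.13 to 2.62), while the Gabpa promoter nearby was lower. In fibroblast-like cells it was at 0.61 and 1.35 CPM, a difference of 1.16 (0.21 to 2.22). By cluster it was at 3.19 and 2.77 CPM in Control against 12.4, 12.3, 23.3 and 19.4 in MOF cKO, so every MOF cKO epithelial-like cluster lay above both Control ones. Repeats, in the genome's masking, made up 32.2% of the region, beside a median of 14.7% over gene-body regions. Nrf1 had a region 66273 bp inside, in an intron, at 2.08 CPM (1.69 to 2.52) in Control against 5.33 (4.90 to 5.8) in MOF cKO epithelial-like cells, for a difference of 1.36 (1.05 to 1.68). It was also higher in fibroblast-like cells, 1.59 and 5.70 CPM, a difference of 1.84 (1.29 to 2.44). The Control epithelial-like clusters 1 and 6 lay apart here, at 3.34 and 0.47 CPM, and the MOF cKO clusters 0, 3 and 4 between 4.99 and 6.21, while 2 sites in cluster 13 gave 1.34. In fibroblast-like cells the genotypes met in cluster 2, at 4.05 CPM (2.10 to 7.08) in Control and 6.71 (5.49 to 8.12) in MOF cKO, and in cluster 5, at 1.16 (0.70 to 1.80) and 2.92 (1.34 to 5.54), with overlapping intervals in both. The central 300 bases of these regions, whose levels were counted over each library's own peaks, are shown with an AP-1 match in capitals, on the plus strand of GRCm38.
Gabpa, 3828 bp inside, chr16:84838603-84838902, plus strand: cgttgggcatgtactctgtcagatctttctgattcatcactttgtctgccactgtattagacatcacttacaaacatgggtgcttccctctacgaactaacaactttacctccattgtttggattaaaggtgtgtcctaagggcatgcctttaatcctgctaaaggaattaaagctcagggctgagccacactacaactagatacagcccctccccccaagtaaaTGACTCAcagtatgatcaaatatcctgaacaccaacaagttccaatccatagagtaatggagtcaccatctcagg
Nrf1, 66273 bp inside, chr6:30114111-30114410, plus strand: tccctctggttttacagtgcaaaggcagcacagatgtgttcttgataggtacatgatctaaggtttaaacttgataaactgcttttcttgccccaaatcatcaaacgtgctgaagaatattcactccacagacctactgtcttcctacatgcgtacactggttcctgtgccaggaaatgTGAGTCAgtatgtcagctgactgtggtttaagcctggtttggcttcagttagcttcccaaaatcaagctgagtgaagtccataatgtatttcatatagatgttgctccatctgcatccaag

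The coactivator genes held the other regions that were 2-fold higher or more in MOF cKO. Ppargc1b had 3 in introns. At 5479 bp from its start the level was 1.62 CPM in Control against 6.29 in MOF cKO epithelial-like cells (log2 difference 1.96, 1.62 to 2.31) and 4.67 and 10.3 in fibroblast-like cells (1.14, 0.80 to 1.49). At 68876 bp it was 0.99 and 3.90 CPM (1.98, 1.55 to 2.44), and at 52200 bp 2.38 and 5.76 (1.27, 0.99 to 1.57). In Ppargc1a an intronic region at 101523 bp was at 0.94 and 3.06 CPM (1.71, 1.26 to 2.19) and one at 66453 bp at 0.05 and 0.21 on 5 and 44 sites (2.07, 0.21 to 4.75), far below its fibroblast-like level of 3.16 CPM. In fibroblast-like cells the log2 differences were 1.87 (0.21 to 4.04) at 68876 bp and 0.85 at 52200 bp of Ppargc1b. They were 1.86 (0.76 to 3.16) at 101523 bp and -0.34 (-0.84 to 0.17) at 66453 bp of Ppargc1a. Within the fibroblast-like clusters that held both genotypes, intervals overlapped at 101523 bp and at 68876 bp. Control and MOF cKO at 101523 bp were at 1.69 and 1.94 CPM in cluster 2 and at 0.18 and 0.97 in cluster 5. The values at 68876 bp of Ppargc1b were 0.34 and 0.92 CPM in cluster 2 and 0.15 and 0.65 in cluster 5.

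Regions 2-fold lower or more in MOF cKO epithelial-like cells lay in Nrf1, Tfb1m, Ppargc1a and Ppargc1b. Nrf1 had one 9357 bp inside, at 1.54 and 0.46 CPM (-1.73, -2.28 to -1.18), and one at 43400 bp, at 1.18 and 0.47 (-1.32, -1.89 to -0.74). Its strongest gene-body region, at 73818 bp, was at 14 and 7.16 CPM, just short of 2-fold (-0.97, -1.12 to -0.82). Tfb1m had one at 34883 bp, at 1.66 and 0.61 CPM (-1.44, -1.94 to -0.95), Ppargc1a one at 23280 bp, at 1.06 and 0.43 (-1.31, -1.93 to -0.71), and Ppargc1b one at 97809 bp, over an exon, at 4.33 and 1.94 (-1.16, -1.45 to -0.87). By cluster, the Ppargc1a region was at 0.27 CPM in Control cluster 1 and 2.07 in Control cluster 6, against 0.42, 0.42 and 0.30 in MOF cKO clusters 0, 3 and 4, so its difference was carried by 1 Control cluster. The Nrf1 region at 9357 bp was likewise at 0.69 and 2.63 CPM in the Control clusters and at 0.50, 0.60 and 0.32 in the MOF cKO ones, with the interval of Control cluster 1 (0.41 to 1.08) overlapping theirs. In fibroblast-like cells the Tfb1m and first Nrf1 regions were at 0.40 and 0.42 CPM and at 0.68 and 0.74. The gene-body regions of Tfam (at 12172 bp, 3.45 and 3.33 CPM, -0.05) and Esrra (-0.10 and -0.05) had intervals that included 0. Gabpa's other region, which also lies within 500 bp of a start of Atp5j, was at 8.67 and 5.81 CPM (-0.58, -0.76 to -0.40).

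**Figure D4:**
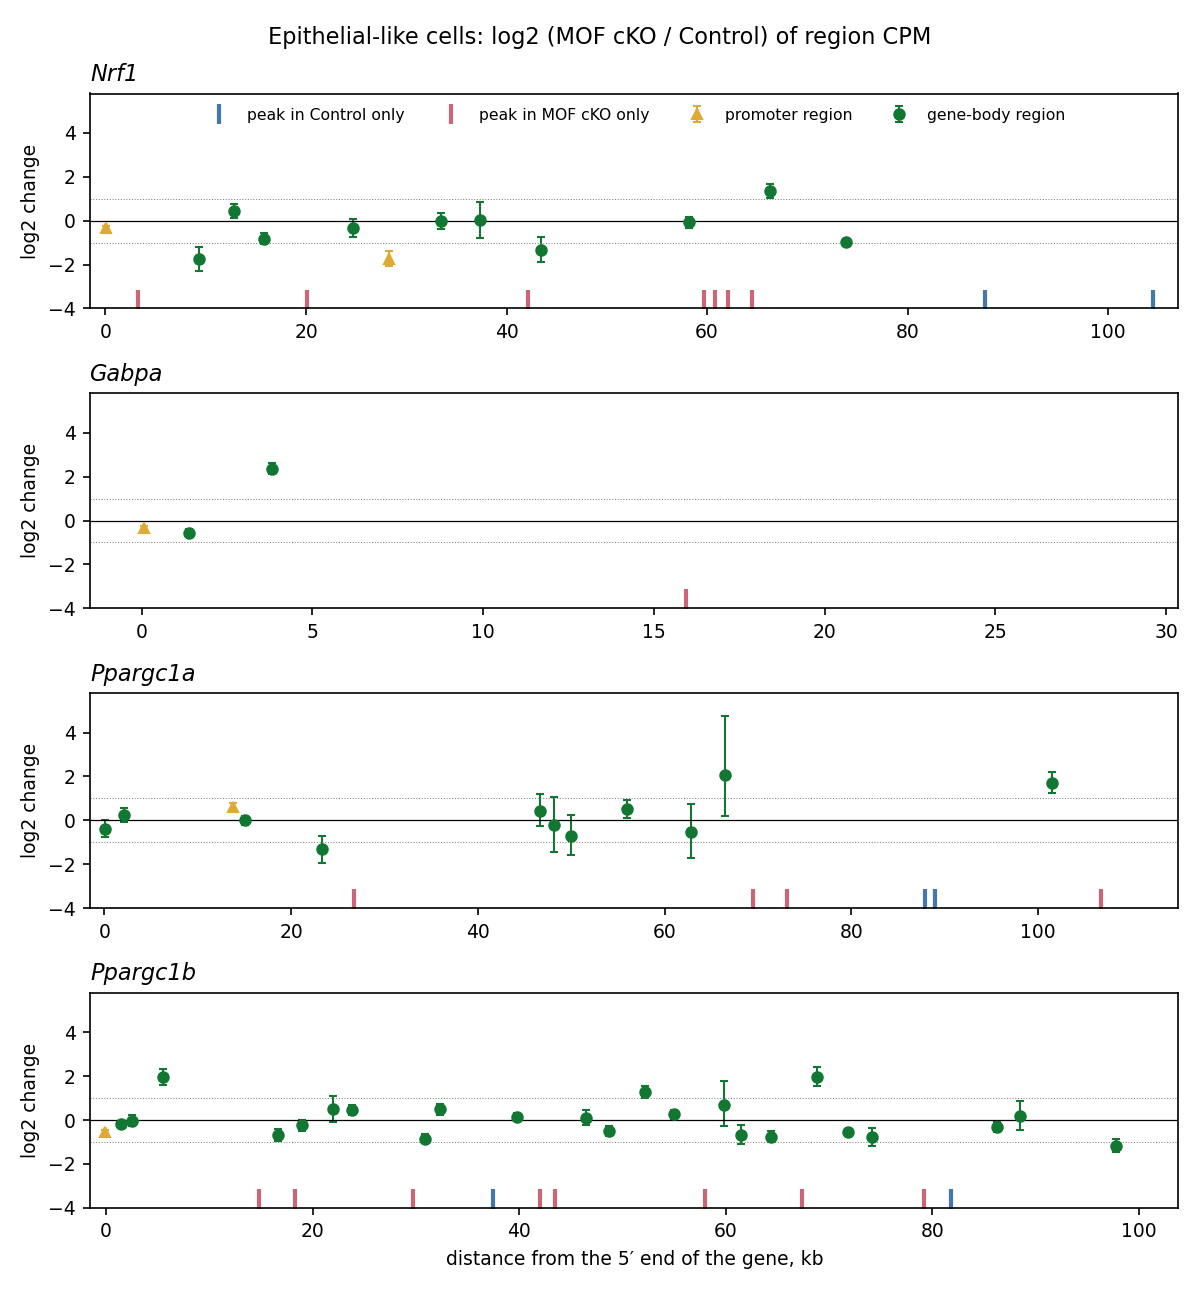
Log2 difference of region CPM (MOF cKO over Control) in epithelial-like cells along Nrf1, Gabpa, Ppargc1a and Ppargc1b, by distance from the 5′ end of the gene in kb, with 95% counting intervals, triangles for promoter regions, circles for gene-body regions, dotted lines at 2-fold and ticks for peaks called in one library. In Gabpa the circle at 2.37 stands over a promoter at -0.35.

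AP-1 is the factor formed by Fos and Jun proteins. The AP-1 motif was present in the central 300 bases of 6 of the 53 regions (11.3%), beside 16.4% of all 97399 shared gene-body regions. Across all of them it was present in 46.2% of the 18187 regions that were 2-fold higher in MOF cKO epithelial-like cells, in 10.4% of the 70014 between and in 2.90% of the 9196 that were 2-fold lower. Among the members the counts were 4 of 7, 2 of 41 and 0 of 5. The 4 higher ones were the Gabpa and Nrf1 regions shown above and the Ppargc1b regions at 5479 and 52200 bp, and the others were Esrra at 7538 bp and Ppargc1b at 64406 bp, whose levels were not 2-fold different.

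Peaks called in one library only made up the other 27 gene-body regions: 7 (8.75% of 80) in Control against 20 (25%) in MOF cKO. Over all 170420 gene-body regions 9.73% were in Control only and 33.1% in MOF cKO only. The MOF cKO library has more cells and sites, and a region without a peak has no count in the other library, so none of these is a measured difference. The MOF cKO ones were weak, from 0.31 to 1.82 CPM in epithelial-like cells with a median of 0.71, and 8 lay in Ppargc1b and 6 in Nrf1. The strongest Control one, at 3.56 CPM, lay 1543 bp inside Polg over an exon. Polrmt and Polg had no gene-body region called in both.

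Differences between the cell classes were about as common in these regions as in all gene-body regions. In Control, 26 of the 53 were at least 2-fold higher in epithelial-like than in fibroblast-like cells (41.7% of all gene-body regions were) and 11 were at least 2-fold higher in fibroblast-like cells (25.2%). In MOF cKO the counts were 22 (43.4%) and 11 (23.8%). The median difference, epithelial-like over fibroblast-like, was 0.99 in Control against 0.20 in MOF cKO for the members, and 0.53 and 0.60 for all. These values are on the CPM scale. Per cell, a scale added after seeing the data, the counts were 28 and 10 in Control (47.2% and 22.5% of all) and 26 and 10 in MOF cKO (54.7% and 18.7%), with medians of 1.32 and 0.86 for the members and 0.85 and 1.26 for all. Of the regions with a larger level in epithelial-like cells, the highest in CPM were Nrf1 at 73818 bp, 14 CPM in Control epithelial-like and 0.56 in fibroblast-like cells, and Ppargc1b at 71862 bp, 13.3 and 0.45. The opposite pattern was seen in the Ppargc1a region at 48108 bp, 0.19 and 7.55 CPM, and in Ppargc1b at 64406 bp, 4.30 and 26.8 CPM. A Ppargc1b region at 2549 bp, next to the microRNA gene Mir378a in that intron, was at 4.08 and 4.02 CPM in Control and MOF cKO epithelial-like cells and at 16.1 and 22.3 in fibroblast-like cells (log2 difference of the genotypes 0.47, 0.28 to 0.67).

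**Figure D5:**
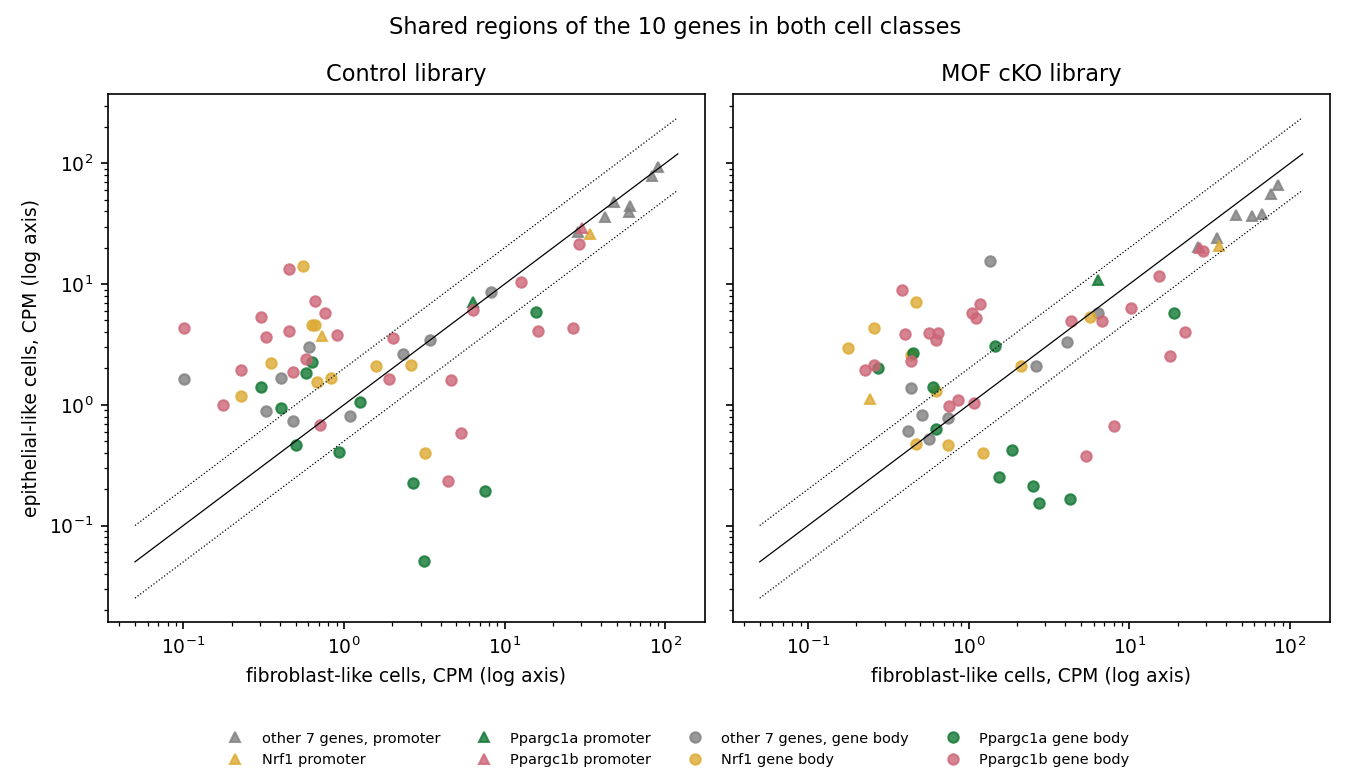
Level of each shared region of the 10 genes in fibroblast-like (horizontal) and epithelial-like (vertical) cells, both in CPM on log axes, for the Control (left) and MOF cKO (right) library, with the line of equality and dotted lines at 2-fold. In Control 26 gene-body regions (circles) lie above and 11 below the 2-fold lines, and of the promoters (triangles) the weak inner Nrf1 start, at 3.74 against 0.73 CPM, lies above them.

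Other genes of the pathway were taken from 3 lists. For mitochondrial DNA maintenance, 18 of 18 listed genes had a promoter value in epithelial-like cells, with a median log2 difference of -0.42 and 10 below the median of all promoters. For mitochondrial transcription and RNA processing, 17 of 18 had one, with a median of -0.52 and 12 below. For further nuclear regulators, 24 of 25 had one, with a median of -0.36 and 9 below. None was 2-fold different in either class. At the lower end, picked after the values were seen, were Mterf1a (1.93 and 1.00 CPM, -0.95), Mpv17, an inner-membrane protein (17.1 and 9.25, -0.88), Tefm, the mitochondrial transcription elongation factor (15.1 and 8.49, -0.83), Primpol, a primase and polymerase (60.3 and 34.9, -0.79), and the nuclear cofactor Hcfc1 (19.3 and 11.3, -0.77). At the upper end were the nuclear regulators Mef2c (13.3 and 17.9 CPM, 0.44), Crtc3 (20.8 and 25.5, 0.30) and Pparg (8.17 and 9.71, 0.25). Like Ppargc1a, these were more open in MOF cKO. Crtc3 (0.21, 0.06 to 0.36) and Pparg (0.34, 0.13 to 0.55) were also higher in fibroblast-like cells, while Mef2c was lower there (-0.15, -0.285 to -0.02). In fibroblast-like cells the medians of the lists were -0.03, -0.02 and -0.05.

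Over the 16 cluster and library groups, which share library and depth, the promoters whose levels followed Tfam most closely were Cox7a2, Zfp946 and Fam118b (Pearson r of 0.92 each, on log2 of CPM plus 5). Ppargc1b was followed most closely by Fam220a (0.92), Mettl27 (0.92) and Dynll2 (0.91). For Ppargc1a the closest were Sftpa1, Spag11a and Fam240a (0.88 each), all of low level, with means of 0.79, 1.47 and 1.38 CPM.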

How the data were processed

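Single-cell ATAC-seq was made with the 10x Single Cell ATAC kit. The deposited files were, for each library, a count matrix of transposase sites per peak and cell (whole-number counts, not normalized), its barcodes and its peaks. The authors made them with cellranger-atac 2.0.0, as the file headers state, against mm10, calling peaks in each library separately. Peaks of both libraries were merged where they overlapped, and only regions with a peak in both were compared. Each library's sites were counted in its own peaks, not over the part of a merged region that only the other library's peak covered. Levels per kb were divided by the full merged width in both libraries. The effect of this on the differences was not tested. Starts and genes came from GENCODE vM21 (GRCm38.p6), protein-coding basic transcripts.

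Cells with fewer than 1000 sites were left out (2481 of 2541 Control and 4348 of 4348 MOF cKO barcodes were kept). Cells were clustered by latent semantic indexing and the Leiden method, and clusters were named from marker genes at promoters. Cluster 9 (shallow, with none of its class's markers among its 10 top promoters) was left unnamed. So were clusters 14 and 15 (under 3 markers raised) and 10 (markers of more than one class and a high doublet score, a choice made after seeing the data). Cluster 13 was also shallow but had 2 such markers among its top promoters and was kept as epithelial-like. Doublets were scored, and the 5% of highest score were left out only as an alternative. Counts were summed per library and class and divided by the class's sites in shared regions (CPM). Fragments were taken as sites divided by 2. Intervals were exact Poisson for a level and exact conditional binomial for a difference, at 95%. A feature needed 20 sites over both libraries. Members and gene lists were chosen with earlier results of these data known. Named regions were the lowest and highest log2 difference of each gene among those with at least 100 epithelial-like sites, with 3 each for Ppargc1a, the longest gene, and further regions 2-fold different or of note were named after their values were seen. Analyses used Python 3.11.15, numpy 2.4.6, scipy 1.17.1, pandas 2.3.3, scikit-learn 1.9.0, igraph 0.11.9 and leidenalg 0.10.2. The code was tested on simulated data. The alternatives were other scalings, thinning, windows, minimums, cell filters and cluster assignments.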

Additional observations from a re-analysis of the deposited data

Results flagged for a closer look

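The Polg promoter, which serves the catalytic subunit of the mitochondrial DNA polymerase, differed in opposite directions between the classes: the log2 difference of MOF cKO over Control was -0.21 (-0.28 to -0.13) in epithelial-like cells and 0.15 (0.05 to 0.25) in fibroblast-like cells. With 1 library per genotype the difference between the classes was not tested. The opposite directions depend on the scaling: per cell, Polg was at -0.16 in epithelial-like and -0.14 (-0.24 to -0.03) in fibroblast-like cells. The median of all promoters was -0.41 and -0.03 in the same classes, so Polg lay above the median in both. In the fibroblast-like clusters that held both genotypes, Polg was at 71.0 and 71.0 CPM in Control and MOF cKO (cluster 2) and at 59.0 and 55.3 CPM (cluster 5).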

How the results depend on the processing

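With 1 library per genotype no replicate could be left out. No paired analysis was possible because each genotype has 1 library. In epithelial-like cells the summed log2 difference of the 10 promoters, -0.39, was -0.53 when scaled to all sites in each library's own peaks, -0.36 with median-of-ratios size factors, -0.34 per cell and -0.35 after thinning each cell to 5000 sites, and their median, -0.44, was -0.58 on own peaks. In fibroblast-like cells the sum, -0.06, was -0.11 on own peaks and -0.35 per cell, and the median, -0.07, was -0.36 per cell. The median of all promoters moved with them, to -0.55 on own peaks in epithelial-like cells and -0.32 per cell in fibroblast-like cells, so the size of each promoter's difference depends on the scaling. Tfb2m in epithelial-like cells, -0.13, was 0.022 (-0.31 to 0.36) after thinning. Polg in fibroblast-like cells, 0.15, was -0.14 per cell. Ppargc1b in epithelial-like cells, -0.53, was -0.34 with a 1000 bp window. For Ppargc1b and Ppargc1a that window also takes in a gene-body region. Ppargc1a in epithelial-like cells stayed above 0, between 0.38 with a 1000 bp window and 0.87 after thinning, and Tfam stayed below it, between -0.74 and -0.54. The number of the 10 below the median of all promoters, 6, was 4 after thinning and 5 with a 1000 bp window. The 12 of 53 gene-body regions past 2-fold were 14 of 53 on own peaks and 9 of 38 after thinning, which left 38 with enough sites.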
